A study of Mus musculus with 12 samples.

Results

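Retained-intron transcripts of the hippocampus were measured in RNA-Seq libraries of 12 male C57BL/6 mice (C57BL/6J in the study's methods) at postnatal day 70. A transcript was counted as one when GENCODE vM21, the annotation of the mouse build GRCm38, gives it the type retained_intron, and when 6 or more of the 12 libraries listed it at no less than 0.1 TPM. TPM is a level corrected for transcript length and scaled to the size of the library. This gave 12985 transcripts of 6618 genes, out of 20617 retained-intron transcripts and 115270 transcripts of all types in the table. They made up 21.7% of the 59852 transcripts of all types that reached the same level. The control group (n = 3) had no intervention, the ethanol group (n = 3) had dams that drank 10% ethanol in water by preference during gestation (by the study's methods it was also on offer before mating and after birth until postnatal day 10, which overlaps the days of separation), and the stress group (n = 3) was isolated from the dam and the rest of the litter, 3 h a day, between postnatal days 2 and 14. The ethanol + stress group (n = 3) had both treatments. The question was how prenatal ethanol and early stress, alone and together, change hippocampal RNA that lasts into adulthood. Ethanol intake was voluntary, and whether libraries of one group came from separate litters is not given in the sources used here, so the spread between libraries may hold litter effects. By the study's methods each litter was divided at random between separation and no separation. Control and stress mice, or ethanol and ethanol + stress mice, may thus be littermates, and the tests treat all libraries as independent.

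Introns are removed from pre-mRNA by the spliceosome, which reads a GT at the start and an AG at the end of most introns, together with the pyrimidine tract before that AG. When an intron stays in the finished RNA, the transcript often carries an early stop codon, and it is either held in the nucleus or degraded in the cytoplasm by nonsense-mediated decay. Neurons are known to hold such intron-containing RNAs in the nucleus and to complete their splicing after activity. In the annotation, retained_intron is a label for a transcript that holds intronic sequence relative to the coding transcripts of its gene, and many of these models are fragments.

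Before the results, several facts about the libraries apply. Depth was estimated from the steps between low values at 12000000 to 14900000 read pairs per library, and the median retained-intron transcript rested on only 3.98 to 6.25 read pairs. Between 29.5% and 42.5% of these transcripts were at or under 3 read pairs in a library, the limit that a count of 0 allows. Markers of hippocampal neurons summed to 427 to 552 TPM in every library, and those of the thalamus to 38.3 to 52.9 TPM. Choroid plexus markers ranged from 39 to 7243 TPM and differed within every group. Stress replicate 3 stood apart from the other stress libraries in the share of retained-intron transcripts with a value above 0, and ethanol + stress replicate 1 from the others of its group in their median level, while stress replicate 1 had the lowest share of all values.

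The annotated introns that were held whole were short beside the other introns of the same genes. Of the 12985 transcripts, 4059 (31.3%) held at least 1 whole intron that a coding transcript of the gene splices out, 8842 held only part of an intron, and 84 held neither. The 6037 different introns held whole had a median length of 320 bp, with an interquartile range of 138 to 817 bp. The 98765 other introns of the same genes had a median of 1486 bp. Of the 4059 introns examined, 1 for each transcript that held a whole one, 98% began with GT and ended with AG. These introns had a median GC content of 50.7%, against 52% in the rest of the same transcripts. Both ends of the retained introns of 8 transcripts named in the results are printed here, as the boundaries that the annotated transcripts span. Levels are given per annotated transcript, and reads inside the introns or across these boundaries were not counted. They were read from the GENCODE transcripts in GRCm38, 5′ to 3′ on the strand of the gene, with intron bases in capitals and the 3 exon bases on either side in lower case.
Srsf5-212 5′ end, intron chr12:80947866-80949094 on the plus strand: cagGTTTGT
Srsf5-212 3′ end, same intron: CATAATTGTCTTGTGTTAAGgat
Srsf1-203 5′ end, intron chr11:88049599-88049976 on the plus strand: ctcGTACAT
Srsf1-203 3′ end, same intron: TTTCATGTGTCTTTCTGTAGaca
Ptbp1-205 5′ end, intron chr10:79859523-79859601 on the plus strand: cagGTGAGT
Ptbp1-205 3′ end, same intron: TCACACATCCTCTCTTGCAGatc
Rps20-201 5′ end, intron chr4:3835292-3835483 on the minus strand: atgGTGAGG
Rps20-201 3′ end, same intron: TCCCGCCTGGGTGATAACAGgca
Snx6-205 5′ end, intron chr12:54795502-54795647 on the minus strand: atgGTGGGT
Snx6-205 3′ end, same intron: TGGGCCCGCCGACCCCACAGgaa
Cul7-202 5′ end, intron chr17:46661853-46661924 on the plus strand: cagGTGGGT
Cul7-202 3′ end, same intron: GAACTCCGTTCCCCTTCCAGgtg
Ctdnep1-202 5′ end, intron chr11:69984321-69984415 on the plus strand: tagGTGAGT
Ctdnep1-202 3′ end, same intron: TCCTTCCCATTGTGGTTCAGccc
Dxo-204 5′ end, intron chr17:34838137-34838225 on the plus strand: cagGTGAGA
Dxo-204 3′ end, same intron: TGCCTTCTCTTCTTGTGCAGaca
All 8 introns open with GT and close with AG. Those of Rps20-201, Snx6-205 and Cul7-202 are 192, 146 and 72 bp long with 71.9%, 74.7% and 61.1% GC. Those of the SR protein genes are AT-rich, with 36.3% GC in the 1229 bp intron of Srsf5-212 and 34.9% GC in the 378 bp intron of Srsf1-203.

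Retained-intron transcripts were low in general, and a few of them held much of their total. They had a median level of 0.584 TPM over the 12 libraries, with an interquartile range of 0.314 to 1.22 TPM, and 371 of them reached a mean of 10 TPM. The 10 most abundant held 20.2% of the total. The highest was Ncapd2-203 (chr6:125184520-125186595, minus strand), annotated to the gene of a condensin subunit, with 2893, 2539 and 2750.3 TPM (control), 3004, 4136 and 2235 TPM (ethanol), 3416, 2155 and 2701 TPM (stress) and 1999, 3291 and 3509 TPM (ethanol + stress). It held 99.7% of the gene sum, and its 237 first bases lie inside Scarna10, a small RNA of the Cajal body that guides the modification of spliceosomal RNAs. The stretch where Scarna10 ends and intron sequence goes on is printed here, since reads of the small RNA and of Ncapd2-203 share these bases, with the bases of Scarna10 in capitals.
Ncapd2-203, chr6:125186339-125186418, minus strand: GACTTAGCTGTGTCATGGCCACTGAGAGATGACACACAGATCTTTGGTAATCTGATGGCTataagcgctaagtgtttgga
Rpl13a-213, annotated to a gene of the large ribosomal subunit, was the next with 1057, 895 and 829 TPM (control), 908, 1416 and 737 TPM (ethanol), 1271, 786 and 927 TPM (stress) and 717, 1271 and 1244 TPM (ethanol + stress), and its first 16 bases lie in the small nucleolar RNA Snord33.

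In all, 177 retained-intron transcripts (1.36%) overlapped a small RNA gene on the same strand by 10 bp or more, 78 of them one of snoRNA type, and together they held 14.8% of the total. Only 1 of the 6092 small RNA transcripts in the annotation has a row in the table, so reads of the others had no transcript of their own to be assigned to. How much of the level of these 177 transcripts is small RNA was not tested. Neither leading transcript passed the test in any comparison, with adjusted p from 0.936 upward by limma. The others of the 10 that are named here came from Chchd10, a protein of the mitochondrial intermembrane space, from Rps20 and Rps23 of the small ribosomal subunit, from Itm2b, Uchl1, the neuronal ubiquitin hydrolase, Myl12b, a myosin light chain, and Grcc10. Their means over 12 libraries ran from 249.5 TPM for Grcc10-203 to 351 TPM for Chchd10-202. Of these, Myl12b-202 was called once, in ethanol + stress mice, at 295, 289 and 303 TPM (control) and 260.3, 235 and 234 TPM (ethanol + stress) (log2 fold change -0.28, SE 0.08, adjusted p = 0.753). The treated libraries lie below all 3 controls. Myl12b-202 lost its ethanol + stress call without control replicate 1, 2 or 3 or ethanol + stress replicate 2 or 3.

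**Figure D1:**
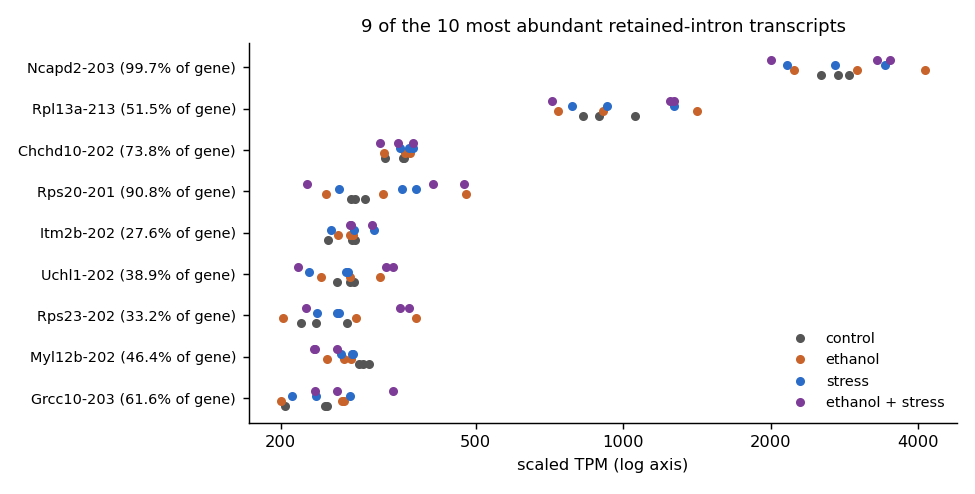
Levels in scaled TPM (log axis) of 9 of the 10 most abundant retained-intron transcripts, 1 point per library coloured by group (n = 3 per group), with the share of the gene sum beside each name. Ncapd2-203 lies between 1999 and 4136 TPM, above every other transcript shown in every library, and the points of the 4 groups overlap for it and for Rpl13a-213.

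In most genes the retained-intron transcripts were a small part of the gene sum. Over the 5003 genes with a mean sum of 10 TPM or more, their share had a median of 3.81% and an interquartile range of 1.44% to 10.3%. The share was over 25% in 487 of these genes and over 50% in 110. In the median transcript that passed the filter, 48% of the bases lay outside the exons of coding transcripts. Reads from exons can thus count toward these shares. Among genes with a tested coding transcript, the highest shares belonged to Ncapd2-203, Mrps26-201 (91.7%), Rps20-201 (90.8%), Mrpl57-202 (88.7%), Taf10-202 (85.1%), Ptges2-203 (83.9%), Chic2-202 (81.8%), Glis3-207 (79.7%), Prelid1-202 (78.8%) and Mrps24-201 (74.6%). Mrps26, Mrpl57 and Mrps24 encode proteins of the mitochondrial ribosome, Taf10 a subunit of TFIID, and Prelid1 a lipid carrier of mitochondria. By annotation Rps20-201 keeps the 192 bp intron printed above, which reaches 3835483 in a transcript whose 5′ end is at 3835488. Its share does not show how much Rps20 RNA holds the intron. Rps20-201 was listed at 297, 284 and 279 TPM (control), 324, 478 and 247 TPM (ethanol), 378, 263 and 354 TPM (stress) and 226, 474 and 409.7 TPM (ethanol + stress). Its highest and lowest library differ within the ethanol and ethanol + stress groups more than the group means do, and none of the 10 transcripts was called in any comparison.

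The total of the retained-intron transcripts was near 3% of all values in every library, and this share was highest in the ethanol group. They held 3.0, 3.04 and 3.05% of the summed TPM in control libraries and 3.16, 3.18 and 3.21% in ethanol libraries. The stress libraries were at 2.9, 3.02 and 3.06%, and the ethanol + stress libraries at 2.94, 3.05 and 2.98%. Every ethanol library was above every library of the other 3 groups, while the stress and ethanol + stress libraries overlapped the controls. The means were 3.03 ± 0.025% (control), 3.18 ± 0.0244% (ethanol), 2.99 ± 0.0841% (stress) and 2.99 ± 0.0596% (ethanol + stress) (SD, n = 3 each). Ethanol was 0.153 percentage points above control, with exact permutation p = 0.10, the smallest that 3 against 3 allows. The summed level in scaled TPM, which moves with the total of each library, was 29616, 28941 and 28728 (control), 31766, 37327 and 28532 (ethanol), 29661, 27657 and 29884 (stress) and 27054, 34405 and 33683 (ethanol + stress). On this scale ethanol replicate 3 lay below all controls and the ethanol libraries did not separate from them (exact permutation p = 0.40). In the share of all values, stress and ethanol + stress differed from control by -0.0407 and -0.0404 points (exact permutation p = 0.70 and 0.40). The stress difference was 0.00627 points without stress replicate 1 and -0.0748 points without stress replicate 3, and the ethanol + stress difference -0.0137 points without ethanol + stress replicate 1 and -0.0725 points without ethanol + stress replicate 2. Over all 12 libraries, the stress main effect was -0.117 points (exact permutation within prenatal treatment, p = 0.035, 0.167 adjusted over 5 comparisons) and the ethanol main effect 0.0765 points (p = 0.080, also by exact permutation). By exact permutation the stress main effect had p = 0.050, 0.055 and 0.060 without ethanol replicate 1, 2 or 3 and p = 0.065 without stress replicate 1, and the ethanol main effect had p = 0.030 without stress replicate 3. Over all 20617 transcripts, without the filter on level, ethanol was 0.175 points above control and the stress main effect was -0.127 points (exact permutation p = 0.10 and 0.035). The effect of ethanol in separated minus not separated mice was -0.152 points, with exact permutation p = 0.090. Ethanol labels were exchanged within each postnatal treatment, which is exact only where ethanol has no effect in either. This p therefore does not isolate the interaction. Without the 20 most abundant of these transcripts the stress main effect was -0.116 points with p = 0.060, and without those that overlap a small RNA gene -0.103 points with p = 0.090, both by exact permutation. In bulk tissue, fewer cells of a type and less RNA per cell cannot be told apart.

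More retained-intron transcripts were seen at all in mice with prenatal ethanol. Of all 20617 in the table, without any filter on level, 62.1, 60.7 and 61.3% had a value above 0 in control and 68.1, 68 and 66.3% in ethanol libraries. The share was 60.03, 59.99 and 65.5% in stress and 62.9, 67.9 and 65.8% in ethanol + stress libraries. The ethanol libraries did not overlap the controls, stress replicate 3 lay among the ethanol + stress libraries, and ethanol + stress replicate 1 was the lowest of its group. Ethanol was 6.14 and ethanol + stress 4.18 percentage points above control (exact permutation p = 0.10 for each). The ethanol main effect was 4.92 points (exact permutation within postnatal treatment, p = 0.010, 0.050 adjusted over 5 comparisons), and the stress main effect -0.738 points (exact permutation p = 0.53). In points, the ethanol main effect was 5.58 without ethanol + stress replicate 1, 5.83 without stress replicate 3 and 4.32 to 5.83 over the 12 libraries left out in turn (exact permutation p up to 0.020). Other types measured the same way were also seen more often in ethanol libraries. Processed transcripts were above 0 in 47.8, 46.1 and 47.1% (control) and 51.9, 51.9 and 51% (ethanol), transcripts of the nonsense-mediated decay type in 54, 51.9 and 51.4% and 56.6, 54.9 and 55.9%, and coding transcripts in 62.4, 61 and 61.3% and 63.6, 62.6 and 62.9%. The ethanol main effect was 3.23 points for processed transcripts and 2.38 points for the decay type (exact permutation p = 0.010 and 0.025). The ethanol main effect on the gap between retained-intron transcripts and each other type was 1.68 points against processed transcripts, 2.54 points against the decay type and 3.8 points against coding transcripts (exact permutation p = 0.015, 0.015 and 0.010, or 0.075, 0.075 and 0.050 adjusted over 5 comparisons). Adjusted over the 120 tests of 24 library measures that were computed, no p fell below 0.15.

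The median share of the gene sum was also higher in ethanol libraries than in control libraries. It was taken over all 20617 transcripts, without the filter on level, in the 5512 of their genes with a sum of 10 TPM or more, and was 2.9, 2.93 and 2.98% (control), 3.8, 4.63 and 3.39% (ethanol), 2.37, 2.89 and 3.14% (stress) and 2.91, 4.07 and 3.91% (ethanol + stress). The 3 control libraries are close to each other, all ethanol libraries lie above them, and ethanol + stress replicate 1 lies among them. The ethanol main effect was 0.916 points (exact permutation p = 0.010, 0.050 adjusted over 5 comparisons). In points it was 1.1 without ethanol + stress replicate 1, 1.0 without stress replicate 3 and 0.744 to 1.1 over the 12 libraries left out in turn (exact permutation p up to 0.030). The filter admits a transcript on any 6 libraries, so one could enter through the 6 libraries with prenatal ethanol alone, and the values that follow here and the shares of gene groups given later, which rest on it, are a description. As part of the summed TPM of their own genes, the filtered transcripts held 6.62 ± 0.026% (control), 7.11 ± 0.365% (ethanol), 6.53 ± 0.167% (stress) and 6.81 ± 0.42% (ethanol + stress) (SD, n = 3 each). Here ethanol + stress lay above control by 0.195 points, opposite in sign to the share of all values. The median retained-intron transcript of those that passed the filter had levels of 0.465, 0.47 and 0.462 TPM (control) and 0.623, 0.74 and 0.557 TPM (ethanol), while the median tested coding transcript stayed within 3.31 to 3.44 TPM in all 12. The median tested processed transcript was at 0.858 ± 0.0139 TPM (control) and 1.04 ± 0.118 TPM (ethanol, SD, n = 3 each), and the median transcript of the nonsense-mediated decay type at 1.05 ± 0.019 and 1.19 ± 0.0952 TPM.

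**Figure D2:**
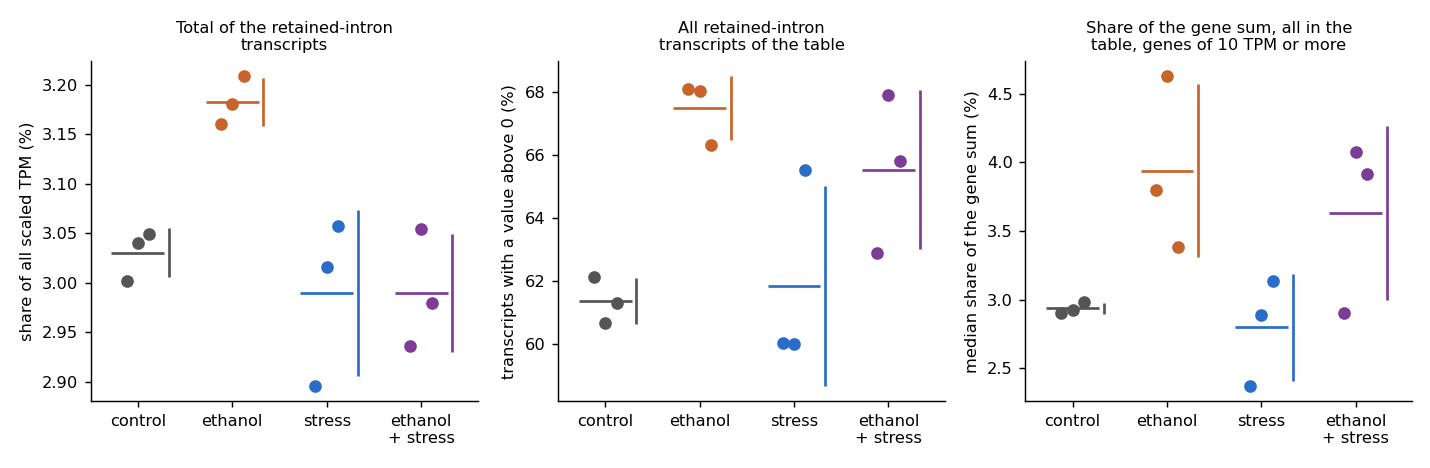
Retained-intron transcripts by library: their share of all scaled TPM (left, %), the share of all 20617 with a value above 0 (middle, %) and the median share of the gene sum in genes of 10 TPM or more (right, %, all 20617 transcripts). Points are libraries (n = 3 per group), horizontal lines are means and the vertical bars beside them ± 1 SD. The axes do not start at 0. All 3 ethanol libraries lie above the control libraries in each panel, and ethanol + stress libraries do so in all 3 libraries only for the share above 0.

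Other measures moved with these libraries. Estimated depth ran from 12000000 to 13300000 read pairs in control, 12200000 to 14900000 in ethanol, 12300000 to 14900000 in stress and 12900000 to 14400000 in ethanol + stress libraries. Stress replicate 3, which stood apart from its group in transcripts seen, was the deepest of all 12, and ethanol replicate 2, which had the highest median level, was shallower than control replicates 1 and 3. The mean transcript length weighted by TPM was 1888 ± 39.3 bases (control), 1794 ± 217 (ethanol), 1868 ± 112 (stress) and 1746 ± 193 (ethanol + stress) (SD, n = 3 each). Blood markers (5 of 5 found) summed to 1603 to 2022 TPM in control and 3146 to 6815 TPM in ethanol libraries. Stress libraries were at 2593 to 3392 TPM and ethanol + stress libraries at 2454 to 6479.7 TPM, so every treated library was above every control. The mean fragment length that best matched the steps between low values, searched in steps of 3 bases, was 198, 198 and 198 bases (control), 210, 201 and 201 bases (ethanol), 189, 198 and 195 bases (stress) and 207, 201 and 207 bases (ethanol + stress). All 6 libraries with prenatal ethanol were above the other 6 in this estimate. Mitochondrial transcripts held 6.36 ± 0.266% (control), 6.83 ± 0.938% (ethanol), 6.32 ± 0.587% (stress) and 7.53 ± 0.964% (ethanol + stress) of the values (SD, n = 3 each). No blood marker was listed at 0 in all libraries. Of 8 long RNAs listed as signs of nuclear RNA only Snhg11 has a row in the table, at 34.1, 37.2 and 34.8 TPM (control), 41.6, 41.2 and 38 TPM (ethanol), 23.5, 28.1 and 36.5 TPM (stress) and 28.1, 38.2 and 37.1 TPM (ethanol + stress). Its ethanol libraries lie above the controls, and the other groups overlap them. The fits of single transcripts are also given below with the trend over transcript length removed. The part of depth, fragment length, blood, mitochondrial and nuclear RNA in the differences was not tested.

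Single transcripts were then tested with limma on log2(TPM + 0.5) across all 59852 transcripts, with calls at an unadjusted p under 0.01. In ethanol mice, 170 retained-intron transcripts were called higher (1.31%, against 0.896% of all tested transcripts) and 26 lower (0.20%, against 0.361%). In stress mice, 55 were called higher (0.424%, against 0.5%) and 67 lower (0.516%, against 0.414%). In ethanol + stress mice, 116 were called higher (0.893%, against 0.767%) and 45 lower (0.347%, against 0.446%). The 3 comparisons share the control libraries. No retained-intron transcript reached an adjusted p under 0.05 in any comparison by limma. The lowest adjusted p were 0.233, 0.559 and 0.195, and 956, 514 and 714 transcripts had an unadjusted p under 0.05 for ethanol, stress and ethanol + stress (7.36%, 3.96% and 5.5%, against 5.43%, 3.88% and 5.57% of all tested). Of the calls, 29 of the 170 higher and 4 of the 26 lower for ethanol, 9 of 55 and 12 of 67 for stress and 24 of 116 and 10 of 45 for ethanol + stress fell on transcripts that reached 0.1 TPM in exactly 6 libraries. Some of these passed the filter only through the groups where they are high, among them Fst-203 and Apbb1-218, which had the lowest adjusted p for ethanol and ethanol + stress. The fit was therefore repeated without the filter, on 19515 retained-intron transcripts above 0 in any library. It called 212 higher (1.09%, against 0.772% of all) and 46 lower (0.236%, against 0.33%) for ethanol, 59 (0.302%, against 0.369%) and 84 (0.43%, against 0.35%) for stress, and 144 (0.738%, against 0.628%) and 58 (0.297%, against 0.358%) for ethanol + stress.

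The median log2 fold change of the retained-intron transcripts was 0.18 for ethanol, -0.02 for stress and 0.11 for ethanol + stress, beside medians of 0.05, 0.00133 and 0.04 over all tested transcripts. The filter admits a transcript on any 6 libraries, so one seen mainly in treated mice could enter because it was high there, and these medians are a description. Without the filter they were 0.12 for ethanol and 0.07 for ethanol + stress, beside 0.02 and 0.00211 over all. Without ethanol replicate 2, 107 transcripts were called higher in ethanol mice and the median was 0.13. Without ethanol replicate 1, 43 were called lower. Without ethanol + stress replicate 1 the median for that group was 0.18, with 138 called higher and 57 lower, and the median for stress turned to 0.03 without stress replicate 1 and was -0.05 without stress replicate 3. The share called over all tested transcripts is not given for these fits, so their counts are not read against it. With each library's trend over transcript length removed, the calls were 105 higher (0.809%, against 0.589%) and 47 lower (0.362%, against 0.613%) for ethanol, and 76 higher (0.585%, against 0.56%) and 68 lower (0.524%, against 0.638%) for ethanol + stress, with each share set against that over all tested transcripts in the same fit. The medians were then 0.10 and 0.06, beside -0.0146 and 4.58e-05 over all tested. With libraries scaled to a common total the calls were 151 higher (1.16%, against 0.795%) and 36 lower (0.277%, against 0.436%) for ethanol, and 91 higher (0.701%, against 0.563%) and 57 lower (0.439%, against 0.545%) for ethanol + stress. The medians under this scaling were 0.14 and 0.04, beside -0.00857 and -0.0526 over all tested.

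**Figure D3:**
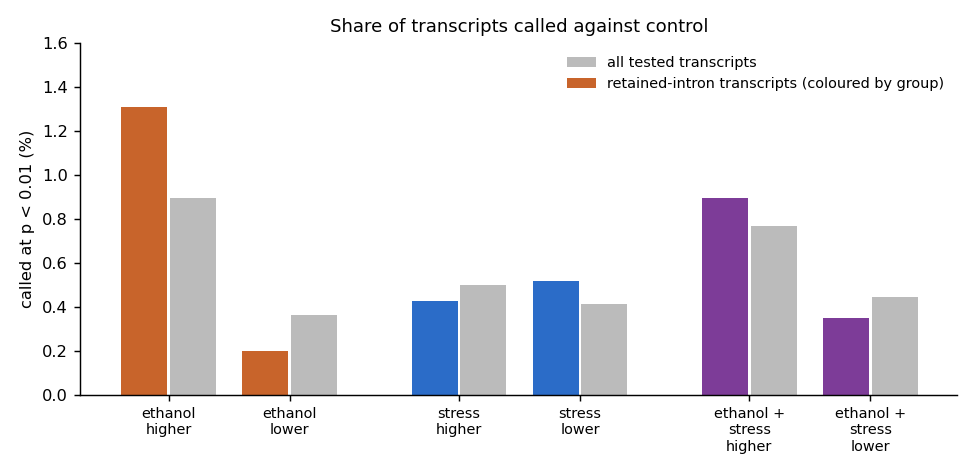
Share of transcripts called at an unadjusted p under 0.01 by limma (%) in each treatment against control, by direction. Coloured bars are the 12985 retained-intron transcripts and grey bars all 59852 tested transcripts, which include them. For ethanol the coloured bar is 1.31% higher and 0.20% lower, beside 0.896% and 0.361%.

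The median log2 fold change in ethanol mice was above 0 in each kind of retained-intron transcript compared, as it was over all tested transcripts (0.05). All kinds hold only transcripts that passed the filter, some of them through the groups where they are high. The medians by kind are therefore a description, and no value without the filter is given for them. For ethanol the median log2 fold change was 0.17 in the 4059 transcripts with a whole intron and 0.18 in the 8842 with only part of one. By level it was 0.17 under 0.5 TPM, 0.23 from 0.5 to 2 TPM and 0.12 at 2 TPM or more, where 2002 transcripts gave 11 calls higher (0.549%) and 6 lower (0.30%), against 0.429% and 0.303% of all tested transcripts at that level. Transcripts with over 75% of their bases outside coding exons had a median of 0.19, and those with under 25% outside 0.12. The 177 that overlap a small RNA gene had a median of 0.19, with 2 called higher (1.13%) and 1 lower (0.565%), counts too low to read against the 0.896% and 0.361% of all tested transcripts. The 170 transcripts called higher in ethanol mice came from 167 genes and had a median level of 0.514 TPM, and 120 of them were at or under 3 read pairs in all 3 control libraries. In 11 of them every control and every ethanol library was at or under that limit.

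Set against the rest of the gene, more retained-intron transcripts were called higher than lower in ethanol mice, as was so over all tested transcripts (404 higher and 299 lower). The share called lower was under that over all tested transcripts. The ratio of a transcript to the other transcripts of its gene was tested for 12936 of them. In ethanol mice it was called higher for 121 (0.935%, against 0.754% of all 53604 tested) and lower for 26 (0.201%, against 0.558%). In stress mice 49 were higher (0.379%, against 0.545%) and 50 lower (0.387%, against 0.506%). In ethanol + stress mice 86 were higher (0.665%, against 0.69%) and 38 lower (0.294%, against 0.571%). By limma none of these ratios reached an adjusted p under 0.05, and 762, 475 and 684 had an unadjusted p under 0.05 (5.89%, 3.67% and 5.29%, against 5.89%, 4.7% and 5.7% of all tested). These counts rest on the same filter, and some of the transcripts passed it only through the groups where they are high. Without it the ratio was tested for 19287 retained-intron transcripts, with 187 higher (0.97%, against 0.735%) and 49 lower (0.254%, against 0.542%) for ethanol, 64 higher (0.332%, against 0.502%) and 69 lower (0.358%, against 0.454%) for stress, and 137 higher (0.71%, against 0.657%) and 58 lower (0.301%, against 0.552%) for ethanol + stress. Without ethanol replicate 2 the ethanol count higher was 80, without ethanol + stress replicate 2 the count higher in that group was 57, and without stress replicate 3 the stress count lower was 82. The share over all tested transcripts in these 3 fits is not given.

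Among the transcripts higher in ethanol mice with the smallest p and no overlap with the controls, most were listed at 0 in the controls and rested on few read pairs. Fst-203, of the gene of follistatin, an inhibitor of activin, was at 0 in every control and stress library and at 0.861, 0.757 and 0.639 TPM (ethanol) and 0.649, 0.355 and 0.258 TPM (ethanol + stress) (adjusted p = 0.0694 for ethanol by limma without the filter). Its ethanol libraries hold an estimated 2.7 to 3.6 read pairs. Sun1-207, of a protein that links the nuclear envelope to the cytoskeleton, was at 0 in every control and stress library and at 0.773, 0.904 and 0.734 TPM (ethanol) and 0.26, 0.512 and 0.865 TPM (ethanol + stress) (adjusted p = 0.145 without the filter). Rgl2-202, of an exchange factor for Ral GTPases, was at 0, 0.303 and 0 TPM (control), 1.98, 2.03 and 1.0 TPM (ethanol), 0.962, 1.14 and 1.12 TPM (stress) and 0.91, 0.492 and 0.79 TPM (ethanol + stress) (log2 fold change 1.85, SE 0.32, adjusted p = 0.353). Specc1l-205, of a cytoskeletal crosslinker, was at 0, 0.0512 and 0.0468 TPM (control), 0.472, 0.489 and 0.31 TPM (ethanol), 0.169, 0.104 and 0.0815 TPM (stress) and 0.175, 0.159 and 0.141 TPM (ethanol + stress) (log2 fold change 0.79, SE 0.14, adjusted p = 0.353). For Specc1l-205 the ethanol libraries stand above all other libraries. Gm10639-203 was at 0 in every control and ethanol + stress library and at 0.468, 1.08 and 0.517 TPM (ethanol) and 0.301, 0.544 and 0.221 TPM (stress) (adjusted p = 0.254 without the filter), on 2.0 to 4.0 estimated read pairs in ethanol mice. Fst-203 and Sun1-207 reached 0.1 TPM only in the 6 libraries with prenatal ethanol and Gm10639-203 only in the 6 with a single treatment, so the filter admitted them through the groups where they are high.

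The transcripts called lower in ethanol mice that had the smallest p and no overlap with the controls differed in how they stood in the other groups. Eif4g1-210 (chr16:20678276-20692881, plus strand, 5004 bases in 26 exons), of the scaffold of the cap-binding complex that starts translation, was at 5.35, 7.74 and 6.83 TPM (control), 0.00358, 0.165 and 3.04 TPM (ethanol), 4.74, 7.35 and 8.2 TPM (stress) and 2.16, 4.14 and 1.92 TPM (ethanol + stress) (log2 fold change -2.74, SE 0.61, adjusted p = 0.527). The ethanol libraries lie below every control, but they differ widely among themselves, from 0.00358 to 3.04 TPM, and the transcript held 4.76% of a gene sum of 90.3 TPM. Psmd13-205, of a subunit of the proteasome lid, was at 0 in every ethanol library and at 1.87, 2.46 and 4.04 TPM (control), 3.52, 1.82 and 7.17 TPM (stress) and 2.92, 6.75 and 4.84 TPM (ethanol + stress) (adjusted p = 0.353). The other 3 groups overlap. Csk-202, of the kinase that restrains Src family kinases, was at 3.21, 2.86 and 4.89 TPM (control), 0, 0 and 0.312 TPM (ethanol), 0, 0 and 0.0461 TPM (stress) and 1.25, 5.76e-05 and 1.16 TPM (ethanol + stress) (log2 fold change -2.79, SE 0.46, adjusted p = 0.353 for ethanol). Its levels were called lower in all 3 treated groups, with adjusted p = 0.559 for stress and 0.645 for ethanol + stress by limma. Csk-202 reached 0.1 TPM in exactly 6 libraries, the 3 controls among them. Without the filter its adjusted p by limma were 0.231 for ethanol, 0.271 for stress and 0.717 for ethanol + stress. Kctd3-210 was at 1.54, 0.939 and 0.868 TPM (control), 0.42, 0.223 and 0 TPM (ethanol), 0.666, 0.513 and 0.653 TPM (stress) and 1.01, 0.944 and 0.98 TPM (ethanol + stress) (log2 fold change -1.2, SE 0.29, adjusted p = 0.626). Ier3ip1-204, of a protein of the endoplasmic reticulum, was at 0 in every library of the ethanol and ethanol + stress groups and between 0.542 and 0.986 TPM in the others, on 1.5 to 1.7 estimated read pairs in the controls, and passed the filter only through those 6 libraries. Kctd3-210 lost its ethanol call without ethanol replicate 3.

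**Figure D4:**
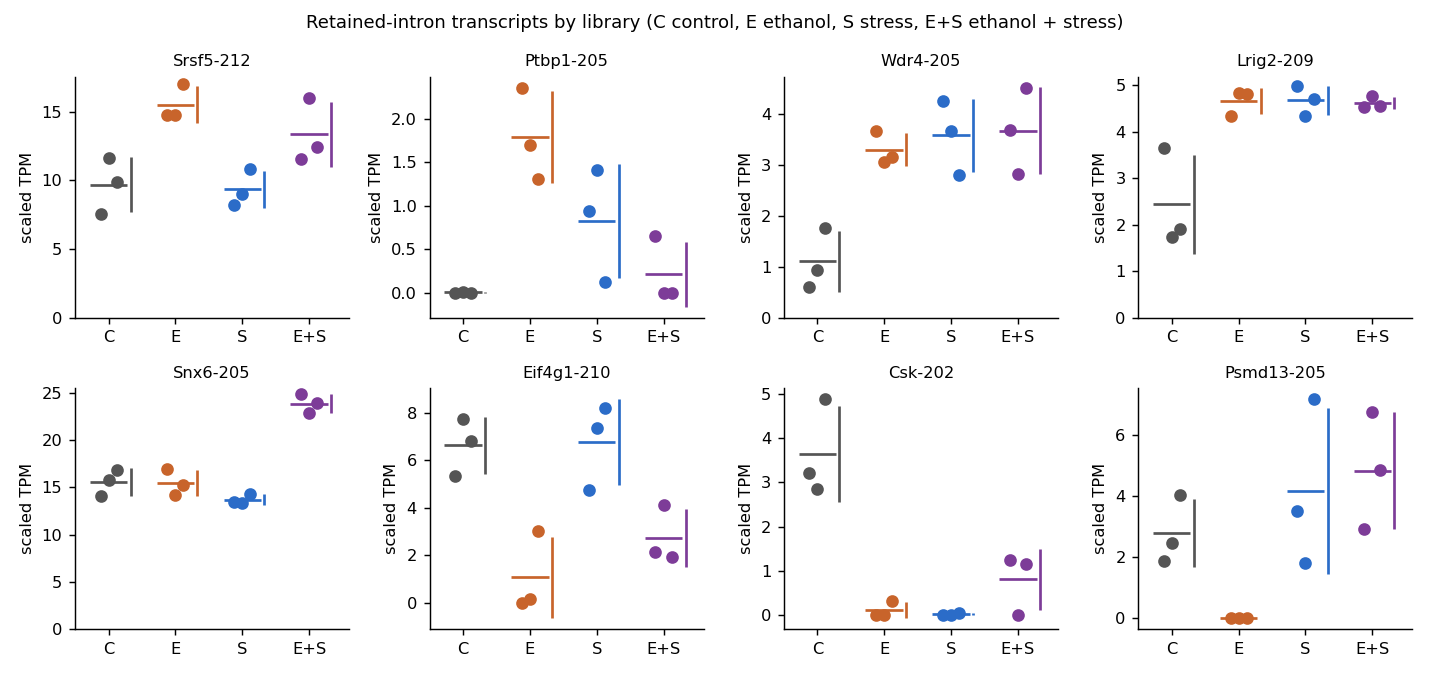
Scaled TPM of 8 retained-intron transcripts in each library (C control, E ethanol, S stress, E+S ethanol + stress, n = 3 each), with means as horizontal lines and ± 1 SD as vertical bars. Srsf5-212 is above all controls in each ethanol library, Wdr4-205 and Lrig2-209 are above all controls in every treated library, Snx6-205 is high only in ethanol + stress libraries, and Psmd13-205 is at 0 in each ethanol library.

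In stress mice, most of the transcripts called higher with the smallest p and no overlap with the controls were listed at 0 in the controls. Myt1l-207, of a transcription factor that keeps neuronal identity, was at 0 in every control library and at 0.435, 0.555 and 0.458 TPM (ethanol), 1.68, 1.14 and 3.68 TPM (stress) and 0.581, 0.81 and 1.95 TPM (ethanol + stress) (adjusted p = 0.561 for stress by limma). Clk3-202, of a kinase that phosphorylates SR proteins, was at 0 in every control library and at 2.88, 5.11 and 1.63 TPM (ethanol), 9.74, 11.7 and 8.41 TPM (stress) and 10.1, 6.35 and 0 TPM (ethanol + stress) (adjusted p = 0.779). The stress group had the highest mean for both. Alkbh6-211 was at 0.462 to 0.574 TPM in the stress libraries and at 0 in the controls, on 3.0 to 3.1 estimated read pairs per stress library. Cluap1-203, of a protein of intraflagellar transport, was at 0 in every stress and ethanol + stress library and at 1.03, 0.557 and 0.936 TPM (control) and 0.485, 0.962 and 0.921 TPM (ethanol) (adjusted p = 0.271 without the filter). Its controls rest on 1.3 to 2.7 estimated read pairs, and it passed the filter only through the 6 libraries without separation. Cul7-202, whose 72 bp intron is printed above and whose gene encodes a cullin of ubiquitin ligases, was at 0 in every stress library and at 0.828, 1.35 and 1.91 TPM (control), 0, 0.847 and 0.567 TPM (ethanol) and 0, 0 and 0.433 TPM (ethanol + stress) (adjusted p = 0.81). Cul7-202 reached 0.1 TPM in exactly 6 libraries, the 3 controls among them (adjusted p = 0.851 for stress by limma without the filter). Rsph3a-207, of a radial spoke protein of cilia, was at 8.07, 8.09 and 11.5 TPM (control), 9.01, 1.86 and 10.8 TPM (ethanol), 0, 1.85 and 0 TPM (stress) and 3.51, 7.47 and 5.58 TPM (ethanol + stress) (log2 fold change -3.52, SE 0.68, adjusted p = 0.693). Ccdc191-201 was at 0.613, 1.13 and 1.41 TPM (control), 0.913, 0.417 and 0.774 TPM (ethanol), 0, 0 and 0.196 TPM (stress) and 0.808, 1.09 and 1.04 TPM (ethanol + stress) (log2 fold change -1.44, SE 0.30, adjusted p = 0.803). In both, every ethanol + stress library was above every stress library.

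Ethanol + stress mice had a call in Snx6-205 (chr12:54783086-54795652, minus strand), of a sorting nexin that returns receptors from endosomes. Snx6-205 was at 14, 15.8 and 16.9 TPM (control), 16.9, 14.2 and 15.3 TPM (ethanol), 13.4, 13.3 and 14.3 TPM (stress) and 24.9, 22.9 and 23.9 TPM (ethanol + stress) (log2 fold change 0.60, SE 0.11, adjusted p = 0.364), on 100.4 to 116 estimated read pairs in the treated libraries. By annotation it keeps the 146 bp intron printed above, which lies close to the 5′ end of the transcript. The ethanol + stress libraries stand above all 9 others, and neither single treatment was called. Its ratio to the rest of the gene was not called, and the gene sum was 57.5 ± 2.58 TPM (control) and 71.9 ± 5.45 TPM (ethanol + stress, SD, n = 3 each). Apbb1-218, of an adaptor of the amyloid precursor protein, was at 0 in every control and stress library and at 0.606, 0.647 and 0.524 TPM (ethanol) and 0.54, 1.23 and 0.705 TPM (ethanol + stress) (adjusted p = 0.122 without the filter). Hdac1-205, of a histone deacetylase, was at 0, 1.99e-05 and 0 TPM (control), 0.868, 1.39 and 1.25 TPM (ethanol), 0.697, 0.439 and 0.365 TPM (stress) and 1.77, 0.482 and 1.16 TPM (ethanol + stress) (adjusted p = 0.466). Gdpd3-203, of a phosphodiesterase of lysophospholipids, was at 0 in every control library and at 0.558, 0 and 0.569 TPM (ethanol), 0, 0.323 and 0.263 TPM (stress) and 1.53, 1.11 and 0.782 TPM (ethanol + stress) (adjusted p = 0.463). These 3 were listed at 0 or nearly 0 in controls, and Apbb1-218 reached 0.1 TPM only in the 6 libraries with prenatal ethanol. Among those lower, Mcrs1-209, of a chromatin-associated protein, was at 4.2, 11.7 and 3.82 TPM (control), 1.55, 1.56 and 3.68 TPM (ethanol), 4.4, 2.7 and 4.5 TPM (stress) and 0, 0 and 0.923 TPM (ethanol + stress) (log2 fold change -3.15, SE 0.53, adjusted p = 0.311). Dxo-204, of an enzyme that removes faulty caps from RNA, was at 0 in every ethanol + stress library and at 0.325, 0.39 and 0.726 TPM (control), 0.259, 0.279 and 0.273 TPM (ethanol) and 0.556, 0.36 and 0.681 TPM (stress) (adjusted p = 0.517). Zdhhc17-202, of a palmitoyltransferase of neurons, was at 0 in every ethanol + stress library and at 0.875, 0.368 and 0.899 TPM (control), 0.281, 0.492 and 0.291 TPM (ethanol) and 0, 0 and 0.306 TPM (stress) (adjusted p = 0.466).

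A few transcripts were called in the same direction in all 3 comparisons, which share their controls. There were 7 higher (0.0539%, against 0.0735% of all tested transcripts) and 1 lower (0.0077%, against 0.00501%), the latter Csk-202. Wdr4-205 (chr17:31496126-31501293, minus strand), of a tRNA methyltransferase complex, was at 0.608, 0.938 and 1.76 TPM (control), 3.67, 3.06 and 3.15 TPM (ethanol), 4.24, 3.67 and 2.8 TPM (stress) and 3.68, 2.82 and 4.51 TPM (ethanol + stress). Its log2 fold changes were 1.3, 1.39 and 1.42 (SE 0.30 each, adjusted p = 0.527, 0.837 and 0.517 by limma). Lrig2-209 (chr3:104456570-104479873, minus strand), of a membrane protein with leucine-rich repeats, was at 3.65, 1.74 and 1.91 TPM (control), 4.33, 4.83 and 4.8 TPM (ethanol), 4.97, 4.33 and 4.71 TPM (stress) and 4.52, 4.75 and 4.56 TPM (ethanol + stress). Its log2 fold changes were 0.87, 0.87 and 0.86 (SE 0.23 each, adjusted p = 0.688, 0.921 and 0.704). All 9 treated libraries were above all controls for both, and the treated groups did not separate from each other. Rnf4-208, of a ubiquitin ligase that reads SUMO chains, was at 0 in every control library and at 1.64, 1.32 and 0.765 TPM (ethanol), 0.65, 1.01 and 1.16 TPM (stress) and 1.33, 1.36 and 3.03 TPM (ethanol + stress). Ctdnep1-202, of a phosphatase of the nuclear envelope, was at 0 in every control library and at 2.91, 1.73 and 0.788 TPM (ethanol), 1.38, 1.39 and 0.72 TPM (stress) and 0.648, 0.58 and 2.72 TPM (ethanol + stress). Eed-207, of a subunit of the Polycomb complex PRC2, was at 0.562, 0 and 0 TPM (control), 1.68, 2.65 and 0.628 TPM (ethanol), 1.24, 2.02 and 1.26 TPM (stress) and 2.21, 2.19 and 2.96 TPM (ethanol + stress). Epb41l2-206, of a membrane skeleton protein, was at 0.352, 0 and 0 TPM (control), 0.344, 1.71 and 1.34 TPM (ethanol), 1.14, 1.2 and 1.4 TPM (stress) and 1.15, 1.09 and 1.21 TPM (ethanol + stress). At least 2 of 3 controls were listed at 0 for each of these 4, ethanol replicate 1 overlapped the controls for Epb41l2-206, and Rgl2-202, given above, completes the group. Rgl2-202 lost its ethanol + stress call without control replicate 1 or 3 or ethanol + stress replicate 1 or 3. Ctdnep1-202 lost its stress call without control replicate 1, 2 or 3 or stress replicate 1 or 2. Ctdnep1-202 lost its ethanol + stress call without control replicate 1, 2 or 3 or ethanol + stress replicate 3. Lrig2-209 lost its ethanol call without control replicate 2 or 3 or ethanol replicate 2 or 3. Lrig2-209 lost its stress call without control replicate 2 or 3 or stress replicate 1. Lrig2-209 lost its ethanol + stress call without control replicate 2 or 3 or ethanol + stress replicate 2. Eed-207 lost its ethanol call without control replicate 2 or 3 or ethanol replicate 1 or 2. Eed-207 lost its stress call without control replicate 2 or 3 or stress replicate 2. Epb41l2-206 lost its ethanol call without control replicate 2 or 3 or ethanol replicate 2 or 3. Epb41l2-206 lost its ethanol + stress call without control replicate 2 or 3.

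Genes of the splicing machinery are known to be regulated through introns of their own, so their retained-intron transcripts were followed by role. The SR proteins, which bind exons and recruit the spliceosome, had 23 transcripts of 9 of 13 genes, the kinases that phosphorylate them had 31 transcripts of 9 of 9 genes, and the hnRNP and PTB proteins, which often oppose exon use, had 50 transcripts of 15 of 29 genes. Srsf5-212 (chr12:80945532-80950503, plus strand), which keeps the 1229 bp intron printed above, was at 7.58, 11.6 and 9.86 TPM (control), 14.8, 14.8 and 17 TPM (ethanol), 8.19, 9.01 and 10.8 TPM (stress) and 11.6, 16 and 12.4 TPM (ethanol + stress) (log2 fold change 0.67, SE 0.18, adjusted p = 0.697 for ethanol). The ethanol libraries were above all controls, but its ratio to the rest of Srsf5 was not called. Srsf1-203 was the most abundant of the SR proteins, with 17.5, 9.52 and 22.3 TPM (control), 13.1, 11.3 and 19.5 TPM (ethanol), 18.4, 13.7 and 10.4 TPM (stress) and 17.9, 15.7 and 9.45 TPM (ethanol + stress), and no comparison called it. Srsf11-205 was called lower in stress mice, at 0.60, 3.36 and 2.31 TPM (control) and 0, 0 and 0.57 TPM (stress) (log2 fold change -1.83, SE 0.58, adjusted p = 1.0). SR proteins had 1 call higher and 0 lower for ethanol, 0 and 1 for stress and 0 and 0 for ethanol + stress. Over all tested transcripts 0.896% were called higher and 0.361% lower for ethanol, 0.5% and 0.414% for stress and 0.767% and 0.446% for ethanol + stress, so nothing is read from 1 or 2 calls in this list and those that follow. The median log2 fold change of the SR protein transcripts for ethanol was 0.30, with 20 of 23 above 0, beside 0.18 and 70.2% above 0 over all retained-intron transcripts. Srsf5-212 lost its ethanol call without control replicate 1 or ethanol replicate 3. Srsf11-205 lost its stress call without control replicate 2 or 3 or stress replicate 1 or 2.

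Of the kinases, Clk3-202, given above, was called higher in stress mice, and Srpk3-203 lower, at 0 in every stress library and at 0.586, 0.754 and 0.885 TPM (control) (adjusted p = 0.921 by limma) on 1.5 to 2.2 estimated read pairs in the controls. Srpk3-203 reached 0.1 TPM in exactly 6 libraries, the 3 controls among them (unadjusted p = 0.00489 by limma without the filter). The most abundant were Srpk1-206 and Prpf4b-206, with means of 6.76 and 5.81 TPM. No kinase transcript was called for ethanol or ethanol + stress. The median log2 fold change of the 31 was 0.27 for ethanol and 0.12 for ethanol + stress. Ptbp1-205 (chr10:79854633-79863818, plus strand), of the polypyrimidine tract binding protein that represses neuronal exons outside neurons, was at 0, 0.013 and 0 TPM (control), 2.35, 1.7 and 1.31 TPM (ethanol), 0.946, 1.41 and 0.121 TPM (stress) and 0.648, 1.06e-06 and 0 TPM (ethanol + stress) (adjusted p = 0.493 for ethanol). Its controls were at or near 0, and the ethanol + stress libraries overlapped them. Ptbp1-214, a shorter transcript of the same gene, was called lower in stress mice, at 1.23, 1.41 and 1.95 TPM (control) and 0, 0 and 0.324 TPM (stress) (log2 fold change -1.77, SE 0.57, adjusted p = 1.0), while Ptbp1-205 was not called there. The most abundant of the hnRNP and PTB proteins were Hnrnpa2b1-211 and Hnrnpa2b1-208, with means of 11.5 and 10.8 TPM, and neither was called. Over the 50 transcripts of these proteins the median log2 fold change was 0.31 for ethanol, -0.12 for stress and 0.20 for ethanol + stress. Srpk3-203 lost its stress call without control replicate 3. Ptbp1-214 lost its stress call without control replicate 1, 2 or 3 or stress replicate 1, 2 or 3.

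Proteins of the major spliceosome had 116 transcripts of 38 of 58 genes, and those of the minor one, which removes the rare U12 introns, had 14 transcripts of 5 of 12 genes. For ethanol 2 major spliceosome transcripts were called higher and 0 lower, beside 0.896% and 0.361% of all tested transcripts. These were Sf3a1-203, of the U2 particle, at 0, 0 and 0.177 TPM (control) and 0.558, 0.939 and 0.394 TPM (ethanol) (log2 fold change 1.0, SE 0.27, adjusted p = 0.688), and Prpf6-204, of the tri-snRNP, at 0, 0.235 and 0 TPM (control), 0.342, 0.284 and 0.537 TPM (ethanol) and 0.376, 0.447 and 0.415 TPM (stress). Prpf6-204 was also called in stress mice (log2 fold changes 0.63 and 0.68, SE 0.20 each, adjusted p = 0.779 and 0.96 by limma). Prpf3-209, of the same particle, was called lower in stress mice, at 0 in every stress library and at 2.01, 1.42 and 3.9 TPM (control) (adjusted p = 0.81). No spliceosome transcript was called for ethanol + stress, and none of the 14 of the minor spliceosome was called in any comparison. The most abundant were Sf3b6-202 and Prpf31-205, with means of 44.1 and 42.9 TPM, and Zcrb1-205 and Zcrb1-204 of the minor spliceosome, with 9.48 and 5.85 TPM. The 116 transcripts had a median log2 fold change of 0.23 for ethanol and 0.17 for ethanol + stress, and the 14 had 0.25 and 0.33. Sf3a1-203 lost its ethanol call without control replicate 1 or 2 or ethanol replicate 2. Sf3a1-203 reached 0.1 TPM in exactly 6 libraries, the 3 ethanol libraries among them (adjusted p = 0.75 by limma without the filter). Prpf6-204 lost its ethanol call without control replicate 1 or 3 or ethanol replicate 1 or 3. Prpf6-204 lost its stress call without control replicate 1 or 3 or stress replicate 1, 2 or 3.

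Among the factors that dispose of or hold back intron-containing RNA, 1 decay transcript was called higher for ethanol and 1 for ethanol + stress, and 1 export and retention transcript lower for stress. Over all tested transcripts 0.896%, 0.767% and 0.414% were called in these directions, and nothing is read from single calls. Nonsense-mediated decay and the exon junction complex had 25 transcripts of 10 of 18 genes. Smg5-203, of a decay factor, was at 0.514, 0.625 and 0.484 TPM (control), 1.38, 2.05 and 1.74 TPM (ethanol), 0.683, 1.56 and 0.72 TPM (stress) and 0.689, 1.08 and 0.857 TPM (ethanol + stress) (log2 fold change 1.09, SE 0.31, adjusted p = 0.703 for ethanol), with all ethanol libraries above all controls and its ratio to the rest of the gene also called. Acin1-217, of a protein that joins the exon junction, was at 0 in every control library and at 0.308, 0.479 and 0.345 TPM (ethanol), 0, 0.773 and 0 TPM (stress) and 0.861, 0.552 and 0.533 TPM (ethanol + stress) (adjusted p = 0.708 for ethanol + stress). The most abundant, Rbm8a-204 and Acin1-209, had means of 6.69 and 2.89 TPM and no call. Nuclear export and retention had 27 transcripts of 12 of 19 genes. Mtrex-203, of the helicase that feeds the nuclear exosome, was called lower in stress mice, at 0 in every stress library and at 1.69, 0.534 and 0.423 TPM (control) (adjusted p = 0.885), on 1.3 to 5.2 estimated read pairs in the controls. Pspc1-203 and Exosc10-207 were the most abundant there, with 4.88 and 3.31 TPM. The median log2 fold changes for ethanol were 0.13 for the decay factors and 0.10 for the export and retention factors. Smg5-203 lost its ethanol call without control replicate 1 or 3 or ethanol replicate 2 or 3. Acin1-217 lost its ethanol + stress call without control replicate 1, 2 or 3 or ethanol + stress replicate 1.

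Genes known in textbooks for regulated intron detention, Clk1, Clk4, Ogt, Srsf5 and Arglu1 among them, had 72 transcripts of 18 of 20 genes. Their retained-intron transcripts held 8.19% to 9.88% (control), 11% to 14.1% (ethanol), 7.36% to 11.5% (stress) and 8.85% to 13.2% (ethanol + stress) of the summed TPM of the list. The ethanol libraries lie above the controls and the other groups overlap them. Of the 72 transcripts, 55 had a log2 fold change above 0 for ethanol, with a median of 0.26, beside 70.2% above 0 and 0.18 over all retained-intron transcripts. For ethanol 1 was called, Srsf5-212, beside 0.896% called higher of all tested. Arglu1-204, which keeps an intron of 2280 bp and held 41.1% of its gene sum, was at 9.6, 14.4 and 13.2 TPM (control), 14.6, 15.5 and 14.2 TPM (ethanol), 7.7, 10.1 and 15.1 TPM (stress) and 10.5, 12.7 and 14.5 TPM (ethanol + stress) and was not called. Nktr-202, of a cyclophilin-related protein with arginine-serine repeats, was called higher in ethanol + stress mice, at 0, 0.621 and 1.15 TPM (control) and 2.06, 3.19 and 1.69 TPM (ethanol + stress) (log2 fold change 1.5, SE 0.42, adjusted p = 0.769). For SR proteins the retained-intron share was 6.72% to 8.5% in control and 8.96% to 10.2% in ethanol libraries, and for their kinases 12.9% to 14.5% and 16.5% to 18.2%. Nktr-202 lost its ethanol + stress call without control replicate 1 or ethanol + stress replicate 1 or 2.

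**Figure D5:**
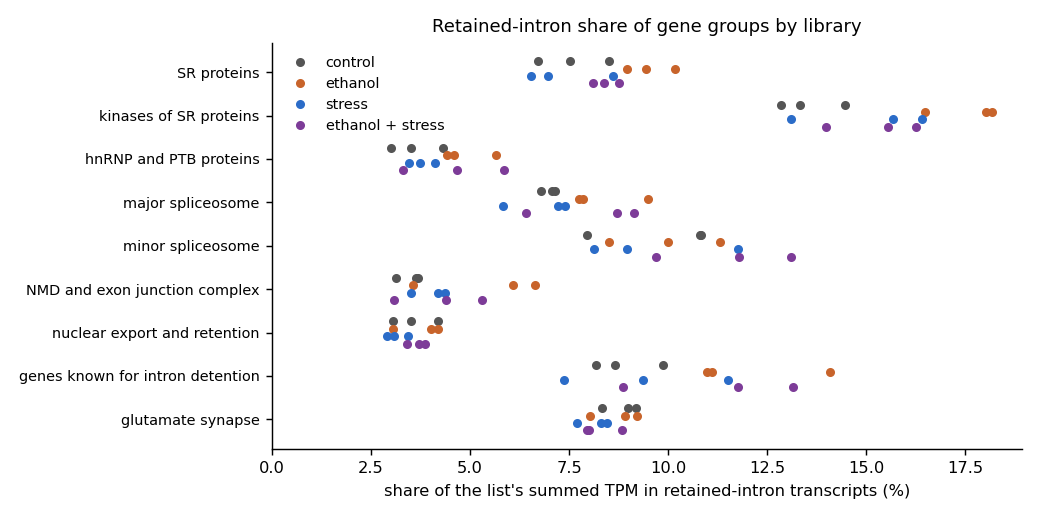
Share of the summed TPM of each gene group that was in retained-intron transcripts (%), 1 point per library coloured by group (n = 3 per group). Ethanol libraries lie above all control libraries for the SR proteins, their kinases, the hnRNP and PTB proteins, the major spliceosome and the genes known for intron detention, and overlap the controls for the minor spliceosome, the decay, export and glutamate synapse groups. The lists share some genes and all points of a library share its depth, so the points of different lists are not independent.

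The glutamate synapse of the hippocampus was the group outside RNA processing. Glutamate receptors, scaffolds and synaptic kinases had 59 transcripts of 22 of 41 genes, which held 8.34% to 9.18% of the summed TPM in control and 8.02% to 9.2% in ethanol libraries. Prkcb-208, of a protein kinase C, and Gria2-208, of the AMPA receptor subunit that blocks calcium, were the most abundant, with means of 184 and 64.7 TPM, 42.8% and 18.4% of their gene sums. Neither was called in any comparison. Dlg2-209, of the postsynaptic scaffold PSD-93, was at 0, 0.257 and 0.0917 TPM (control), 0.88, 0.571 and 0.509 TPM (ethanol), 0.175, 0.326 and 0.618 TPM (stress) and 0.562, 0.346 and 0.545 TPM (ethanol + stress) (log2 fold change 0.91, SE 0.26, adjusted p = 0.712 for ethanol). Dlg3-206, of the related scaffold SAP102, was at 0, 0.569 and 0 TPM (control), 0.484, 0.503 and 0.435 TPM (ethanol), 0.635, 0.932 and 1.84 TPM (stress) and 0.864, 1.25 and 0.935 TPM (ethanol + stress) (adjusted p = 0.97 for stress and 0.808 for ethanol + stress by limma, log2 fold changes 1.28 and 1.23). In both genes the called transcript was under 1% of the gene sum. The median log2 fold change of the 59 was 0.15 for ethanol, 0.01 for stress and 0.01 for ethanol + stress, beside 0.18, -0.02 and 0.11 over all retained-intron transcripts. Dlg2-209 lost its ethanol call without control replicate 1 or 3 or ethanol replicate 1. Dlg3-206 lost its stress call without control replicate 1 or 3 or stress replicate 2 or 3. Dlg3-206 lost its ethanol + stress call without control replicate 1 or 3 or ethanol + stress replicate 1, 2 or 3.

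The interaction asked whether the effect of ethanol differed between separated and undisturbed mice. It was called with a positive sign for 47 retained-intron transcripts (0.362%, against 0.368% of all tested) and a negative sign for 77 (0.593%, against 0.486%). The lowest adjusted p was 0.394 by limma, and 559 had an unadjusted p under 0.05 (4.3%, against 4.06%). The smallest p belonged to Senp3-208, of a protease that removes SUMO, at 0 in every ethanol + stress library and at 0.619, 0 and 0.642 TPM (control), 1.78, 1.34 and 1.65 TPM (ethanol) and 1.14, 1.34 and 1.65 TPM (stress) (interaction -3.17 on the log2 scale, SE 0.47, adjusted p = 0.394). Both single treatments were above every control, and the double treatment was at 0, on at most 2.9 estimated read pairs in any library. Gm10639-203 (interaction -1.97, adjusted p = 0.123 without the filter) was also above control in both single treatments and at 0 after both. Csk-202 (interaction 3.93, adjusted p = 0.512) was low in all treated groups, with the highest treated mean after both treatments.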

How the data were processed

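Hippocampal RNA of 12 male mice was sequenced as stranded total RNA after depletion of ribosomal RNA. Per the submitters' notes and the study's methods, the authors used CASAVA, kallisto on Ensembl mouse transcripts (GRCm38) and sleuth, with versions not given in the sources used here. The deposited values are a signal, TPM per transcript scaled between libraries by the authors, with library sums of 889222 to 1173650. No counts were used. Depth was estimated from the steps between low values of genes with 1 transcript, of which 81.4% to 86.7% lay within 0.1 of a whole read pair, and limits from a count of 0 cover counting error only.

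Transcripts were matched by identifier to GENCODE vM21 (113580 of 115270, 112441 in the same version, and 30 retained-intron transcripts in another version). Transcripts for which 6 libraries or more gave no less than 0.1 TPM entered limma 3.58.1 in R 4.3.3 on log2(TPM + 0.5), in 1 model of 4 groups with empirical Bayes trend, with Benjamini-Hochberg adjustment over all tested transcripts. A fold change on this scale understates that of low transcripts. The same model was fitted to the log2 ratio of a transcript to the rest of its gene. Library measures were compared with exact two-sided permutation tests, for which p = 0.1 is the smallest 3 against 3 allows and 0.005 the smallest within strata. Groups were taken from the labels, and p-values measure the spread between these libraries.

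The transcripts, the gene lists and the cell type markers were chosen with earlier results of these data known. The named transcripts were those with the 10 highest levels and the 10 highest shares of the gene sum, up to 5 called higher and 5 lower per comparison by smallest p without overlap with the controls, the 3 smallest interaction p, called and leading transcripts of the lists, those called in all 3 comparisons, and Eif4g1-210, of which 2 are not reported here. The library measures beyond the share of all values, the small RNA overlap, the removal of a length trend and the counts over all retained-intron transcripts without the filter were added after seeing the data. The model was tested on simulated data. Alternatives in pseudocount, filter, scaling, trend, samples and replicates were tried.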

Additional observations from a re-analysis of the deposited data

Results flagged for a closer look

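For 15 of the retained-intron transcripts named above, the effect of ethanol differed between separated and undisturbed mice by the interaction term of the limma model at an unadjusted p under 0.01, and for none did it pass at an adjusted p under 0.05. The interaction, on the log2 scale, was negative for Gm10639-203 (-1.97), Rgl2-202 (-2.22), Specc1l-205 (-0.70), Clk3-202 (-4.42), Senp3-208 (-3.17), Ptbp1-205 (-3.02), Prpf6-204 (-1.03) and Ctdnep1-202 (-2.14), whose ethanol effect was lower in separated mice. It was positive for Csk-202 (3.93), Psmd13-205 (2.96), Kctd3-210 (1.61), Rsph3a-207 (3.39), Ccdc191-201 (1.76), Snx6-205 (0.79) and Mtrex-203 (1.93). Over all tested transcripts a positive interaction was called for 0.368% and a negative one for 0.486%. The 15 transcripts were named for their differences from the control libraries that the interaction also uses, and the test is not independent of that choice. No test of single outlying libraries was made in these groups of 3.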

How the results depend on the processing

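With a minimum of 1 TPM, which admits fewer transcripts, 48, 41 and 47 retained-intron transcripts were called for ethanol, stress and ethanol + stress. Of these 37, 19 and 27 were higher and 11, 22 and 20 lower. By the ratio to the rest of the gene 45, 45 and 51 were called, with 35, 20 and 31 higher and 10, 25 and 20 lower. The number tested and the share over all transcripts at this minimum are not given, so nothing is read from these counts. With a pseudocount of 0.1 the median log2 fold changes were 0.32 for ethanol and 0.19 for ethanol + stress, from the smaller pseudocount. With the transcripts' own genes as denominator, the share differed from control by 0.492 points in ethanol and 0.195 points in ethanol + stress mice. Without the 20 highest transcripts of the table these differences were 0.268 and 0.102 points, the latter opposite in sign to the share of all values, and the cause was not tested. In that setting the ethanol main effect was 0.213 points (exact permutation p = 0.030, 0.15 adjusted over 5 comparisons). The stress main effect was then -0.11 points (exact permutation p = 0.20). The stress main effect on the share missed the threshold without the 20 highest retained-intron transcripts (-0.116 points, exact permutation p = 0.060), with own genes as denominator (-0.192 points, exact permutation p = 0.31) and without overlaps with a small RNA gene (-0.103 points, exact permutation p = 0.090), and the cause was not tested.

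Leaving out 1 library at a time, the calls ran over 135 to 221 for ethanol, 106 to 141 for stress, 136 to 195 for ethanol + stress and 96 to 154 for the interaction, and the ratio calls over 109 to 163, 81 to 116 and 106 to 180. The positive interaction calls numbered 31 without ethanol + stress replicate 2. The median log2 fold changes ran over 0.128 to 0.227, -0.0507 to 0.0273 and 0.0766 to 0.179, and the differences in share over 0.138 to 0.164, -0.0748 to 0.00627 and -0.0725 to -0.0137 points, so that stress changed sign in both without stress replicate 1. The ethanol main effect on the share ran over 0.053 to 0.0935 points, past the threshold without stress replicate 3 (exact permutation p = 0.030), and the stress main effect over -0.134 to -0.0934 points, short of it without any 1 ethanol library or stress replicate 1. With a replicate block, calls were 193, 125 and 151 and 117 for the interaction, and ratio calls 136, 93 and 107. For the leave-out and block fits the share called over all tested transcripts is not given, so these counts only describe how the calls moved. Each treated library was correlated with the controls, and same-numbered libraries did not deviate together (correlations -0.0195 to 0.0166, and 1 of 9 best with its own number). By the study's methods litters were split between separated and undisturbed mice. Ethanol libraries were not compared with ethanol + stress libraries, so these correlations cannot tell whether mice were littermates. Of 1229 values of named transcripts under the alternatives, 1068 kept direction and call, 161 lost the call and 0 changed direction, and 46 of 79 named calls were made under every alternative. Few read pairs per transcript limit the single calls.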
